A study of Mus musculus with 8 samples.

Results

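The cornified envelope and stratified mucosa genes are a set of 58 protein-coding genes of mouse, chosen by name from the 54532 genes of a read-count table, 22046 of which are protein-coding. The set holds all protein-coding genes named Sprr or Lce, the transglutaminases Tgm1, Tgm3 and Tgm5, and Lor, Ivl, Flg, Flg2, Rptn, Crnn, Evpl, Ppl, Dsg1a, Dsg1b, Cdsn, Krtdap, Sbsn, Dmkn, Calml3, Cnfn, Aloxe3, Alox12b and Grhl3. The choice used no threshold on a measured value. RNA-seq was performed on first molar enamel organs of untreated C57BL/6 mice, all of genotype wt, at postnatal day 5 (P5, secretory stage) and postnatal day 12 (P12, maturation stage). Each age had 4 libraries, numbered 1, 3, 4 and 5 at P5 and 1 to 4 at P12, and the enamel organs of 5 pups were pooled for each library. The organs were dissected and not sorted into cell types, and the pools do not give the spread between single pups.

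The cornified envelope is a sheet of cross-linked protein that replaces the plasma membrane of the outermost cells of skin and of keratinized oral mucosa. Plakins and involucrin are laid down first beneath the membrane, loricrin and the small proline-rich and late cornified envelope proteins are then joined to them by transglutaminases, and lipids are attached to the outside. Many of the precursor genes lie side by side in a cluster called the epidermal differentiation complex, and several of them are also transcribed in stratified epithelia that do not cornify fully, such as those of the mouth and esophagus.

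Total counts were between 16574548 and 22013456 per library. The stages given by the labels were seen in their marker genes, since Amelx, Ambn, Enam and Mmp20 fell and Klk4, Amtn, Odam and Slc24a4 rose between the ages, and collagen and dentin genes (Col1a1, Col1a2, Dspp) were abundant at both ages although the labels call the cells epithelial. P12 library 4 stood apart for the genes described here. As a percentage of the mean of P12 libraries 1 to 3, its normalized count (the read count scaled to a common effective library size of 19006280) had a median of 11.5% over the 24 members that could be tested and of 99.1% over all 16440 genes tested. In the same library Krt13 and Krt4, keratins of non-keratinized oral mucosa, were at 5.89% and 6.83% of that mean. The 4 secretory genes were at 138% to 274% and the 4 maturation genes at 102% to 173%. Fold changes of the tested members are therefore given with and without this library.

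The set is concentrated in the epidermal differentiation complex, where 42 of the 58 members lay between positions 92080271 and 93399442 of chromosome 3 (GRCm38), from Lor at one edge to Rptn at the other. That interval holds 54 protein-coding genes. Of these, 15 passed the filter on low counts and 14 were higher at P12 (28.8% of all genes tested were). Nothing is read from that share, since 10 of the 15 had under 10 counts in a P5 library and needed P12 libraries to pass the filter. Among the 12 genes of the interval that are not members, 5 were tested and 4 were higher. They were Hrnr, which encodes hornerin (by 7.70 log2 units, the fitted log2 fold change of P12 over P5), 2310046K23Rik (7.14), Kprp (5.47) and Crct1 (2.83). Few P5 reads stand behind these values, and Hrnr was at 8.46 without P5 library 5 and Kprp at 7.52 without P5 library 3. The fifth, Gm9774, was at -0.13 (adjusted p = 0.75).

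Promoter sequences are shown for some members, with short words that the choice by name did not use. The Lce1 members shown were not tested, and the other members shown were higher at P12. The words were counted over all members with a promoter, whether or not the member was tested or called. RefSeq (GRCm38.p6) gave 54 promoters for 50 of the members. In the 120 bases before the start, read on both strands, the AP-1 word TGANTCA was found in 13 of the 54 (24.1%) against 3.41% of all 32851 promoters of the same length. By gene it was 11 of 50, since Dmkn has several promoters and 1 site in them was counted more than once. The TATA word TATAAA was found in 19 (35.2%) against 6.34%, and 7 of these 19 belong to Sprr2 genes, which had 7 counts at most in a library. Many neighbouring members are close paralogs, so these shares do not count independent sequences. The 6 members shown first all hold the AP-1 word and do not stand for the set. In them it began between -116 (Sprr1a) and -48 (Lor) from the start. Of these 6, 5 also held TATAAA, the exception being this promoter of Dmkn. Sbsn, also higher at P12, held the AP-1 word at -119 and not TATAAA. Sprr3, Tgm3, Cdsn and Grhl3 were higher without the AP-1 word, and Flg, Flg2, Ivl and Sprr1b, which were not tested, held it. Each line below gives the 120 bases, 5′ to 3′ and ending at the base before the start, with matches to the AP-1 word TGANTCA and to the TATA words TATAAA and ATAAAA in capitals.
Lor, chr3:92083143-92083262, reverse strand: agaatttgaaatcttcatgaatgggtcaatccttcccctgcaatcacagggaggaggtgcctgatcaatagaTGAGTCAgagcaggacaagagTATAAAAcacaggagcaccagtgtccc
Sprr1a, chr3:92485882-92486001, reverse strand: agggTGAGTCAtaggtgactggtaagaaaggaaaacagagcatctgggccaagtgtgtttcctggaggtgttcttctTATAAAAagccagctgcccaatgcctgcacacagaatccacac
Rptn, chr3:93393579-93393698, forward strand: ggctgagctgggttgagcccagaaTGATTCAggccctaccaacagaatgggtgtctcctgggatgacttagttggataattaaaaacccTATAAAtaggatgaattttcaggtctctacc
Crnn, chr3:93144669-93144788, forward strand: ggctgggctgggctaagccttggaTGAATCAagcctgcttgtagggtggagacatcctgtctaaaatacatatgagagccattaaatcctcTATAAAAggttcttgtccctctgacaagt
Krtdap, chr7:30787785-30787904, forward strand: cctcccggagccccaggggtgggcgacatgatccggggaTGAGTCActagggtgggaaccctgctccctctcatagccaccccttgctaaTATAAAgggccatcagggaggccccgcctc
Dmkn, chr7:30763636-30763755, forward strand: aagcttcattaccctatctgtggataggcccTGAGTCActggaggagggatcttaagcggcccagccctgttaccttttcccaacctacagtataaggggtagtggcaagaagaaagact

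The late cornified envelope genes were alike in these words, though neither trait was theirs alone. None of the 13 Lce1 and 6 Lce3 promoters held TGANTCA in this window, nor did any of the 10 Sprr2 promoters. ATAAAA, which overlaps TATAAA within TATAAAA, was found in 12 of the 13 Lce1 and in 6 of 6 Lce3 promoters. Over all 54 member promoters it was found in 28 (51.9%), among them those of Lor, Sprr1a and Crnn, against 8.3% of all promoters. Of Lce1 and of Lce3, 3 promoters each are shown. ATAAAA began at -29 in 4 of them, at -28 in Lce3e and at -44 in Lce3a, and is in capitals with any T before it that completes TATAAA.
Lce3a, chr3:92926231-92926350, reverse strand: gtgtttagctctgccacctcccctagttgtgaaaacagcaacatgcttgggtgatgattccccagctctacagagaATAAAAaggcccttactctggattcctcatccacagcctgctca
Lce3b, chr3:92932859-92932978, forward strand: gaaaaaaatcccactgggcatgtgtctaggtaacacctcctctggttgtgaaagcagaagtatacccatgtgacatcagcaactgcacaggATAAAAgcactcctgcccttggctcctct
Lce3e, chr3:92966941-92967060, forward strand: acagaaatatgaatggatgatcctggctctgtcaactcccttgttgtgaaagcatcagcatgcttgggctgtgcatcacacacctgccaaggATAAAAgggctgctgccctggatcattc
Lce1d, chr3:92687211-92687330, reverse strand: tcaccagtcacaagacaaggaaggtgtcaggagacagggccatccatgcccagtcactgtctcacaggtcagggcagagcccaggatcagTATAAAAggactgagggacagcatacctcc
Lce1a2, chr3:92670316-92670435, reverse strand: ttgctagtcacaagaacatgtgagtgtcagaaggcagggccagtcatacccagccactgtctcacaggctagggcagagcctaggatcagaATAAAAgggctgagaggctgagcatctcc
Lce1c, chr3:92679127-92679246, forward strand: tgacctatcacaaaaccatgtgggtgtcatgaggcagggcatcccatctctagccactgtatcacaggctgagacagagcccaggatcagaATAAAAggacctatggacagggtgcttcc
The grainyhead word AACCGGTT was found in 0 of the 54 promoters and in 0.0487% of all promoters, which says only that these letters are not in the window. Cnfn, which rose with the others, held none of the 4 words.
Cnfn, chr7:25369725-25369844, reverse strand: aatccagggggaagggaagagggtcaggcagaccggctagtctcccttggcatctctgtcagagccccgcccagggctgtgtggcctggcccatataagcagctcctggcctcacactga

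Members of the set were higher in maturation than in secretory enamel organs. Counts of all members together took between 0.0236% and 0.0286% of the total at P5. At P12 they took 0.165%, 0.179% and 0.145% in libraries 1 to 3 and 0.0536% in library 4. The mean share was 5.41 times higher at P12, and 6.5 times higher without P12 library 4. With normalized counts the ratio was 4.14. Shares of the total depend on the most abundant genes, and the top 20 genes held 34.1% to 35.7% of counts at P5 and 16.8% to 19% at P12. In these bulk libraries a larger number of cells of a type and more RNA per cell cannot be told apart. Of the 24 members tested, 23 were higher at P12 and 0 lower at an adjusted p under 0.05, against 28.8% higher and 28.4% lower among all 16440 genes tested. The filter is part of that count, since 9 of the 24 had under 10 counts in at least 1 P5 library and needed P12 libraries to pass. Of the 15 members with at least 10 counts in every P5 library, 14 were higher.

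P12 library 4 lay among or below the P5 libraries for 11 of the 24 members. All P12 libraries lay above all P5 libraries for 13 of the 24 members (26.0% of all genes tested), and P12 libraries 1 to 3 lay above all P5 libraries for 23 of the 24 (29.9% of all genes tested). The median log2 fold change of the 24 was 3.38, beside 0.01 for all genes tested. Without P12 library 4, a gene needed counts in fewer libraries to pass the filter, 42 members were tested, and 41 were higher and 0 lower (29.2% of the 16914 genes then tested were higher). The 18 members added had at most 6 counts in any P5 library and passed only through P12 libraries 1 to 3, so nothing is read from their direction. limma-voom, another test on the same counts, called 14 of the 24 higher. It did not call Crnn, Cdsn, Lor, Sprr3, Sprr1a, Lce3a, Lce3c, Ppl and Grhl3, with adjusted p from 0.058 to 0.11.

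**Figure D1:**
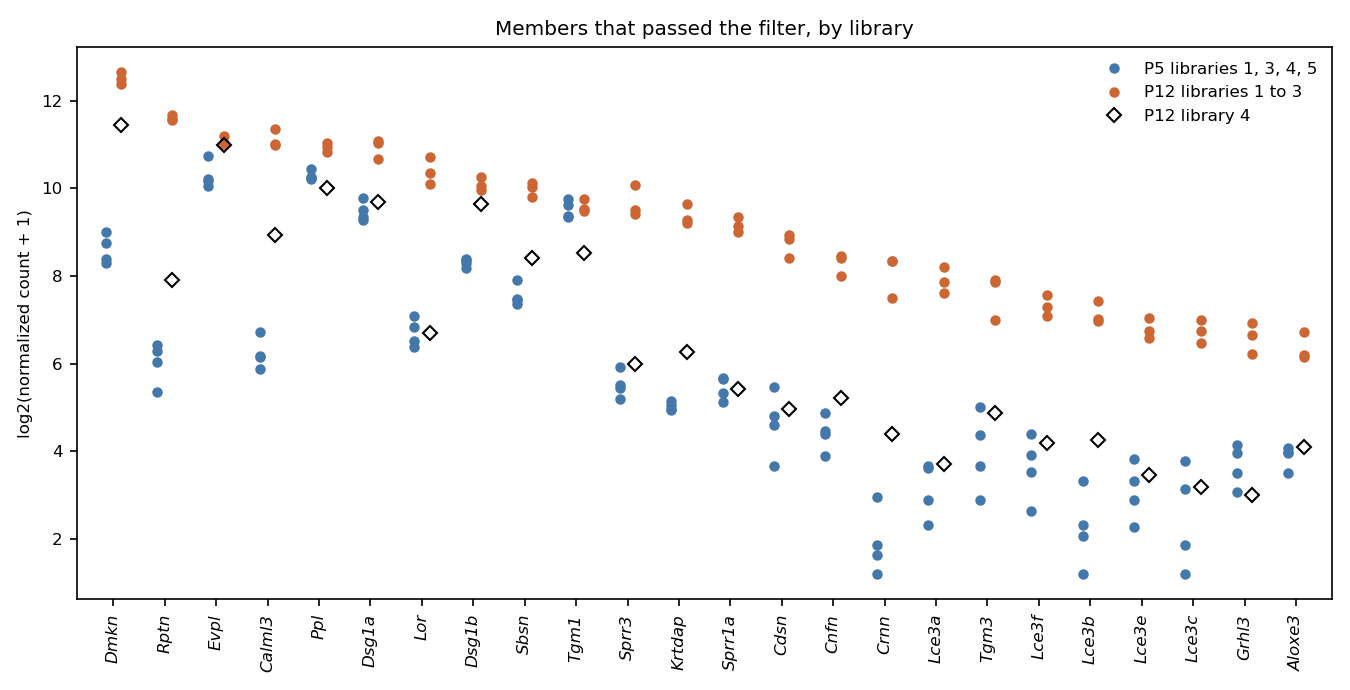
Normalized counts of the 24 tested members on a log2 scale after adding 1, with each point a library: blue for P5 (libraries 1, 3, 4 and 5), orange for P12 libraries 1 to 3 and an open diamond for P12 library 4. For 23 members the orange points lie above all blue points, and the diamond lies above the blue points for 13, among them for 8 and below them for 3.

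S100-fused proteins carry a calcium-binding domain followed by long repeats and are bound into the envelope or bundle keratin. Rptn (repetin, chromosome 3, 93393699 to 93399442) had normalized counts of 77.1, 64.8, 84.4 and 40.2 in the P5 libraries and of 3077, 3259, 3010 and 241 in the P12 libraries. The ages did not overlap, but P12 library 4 was nearer to P5 than to the rest of P12. Rptn rose from 66.6 ± 19.4 to 2397 ± 1441 (SD, n = 4 each), a change of 5.19 log2 units (SE 0.71, where SE is the standard error, adjusted p = 8.4e-05), and of 5.56 without P12 library 4. Crnn (cornulin, chromosome 3, 93144787 to 93149819), known from esophageal and oral epithelium, had 1.29, 6.71, 2.64 and 2.12 at P5 and 325, 322, 181 and 20.1 at P12. It had the largest fitted change of the tested members. Its change was 5.98 log2 units (SE 0.90, adjusted p = 0.00017), 6.35 without P12 library 4 and 6.63 without P5 library 3, and few reads stand behind its P5 level.

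The filaggrin genes, whose products bundle keratin filaments in the granular layer, were not abundant enough to be tested. Flg had read counts of 0, 4, 0 and 1 at P5 and of 91, 55, 56 and 1 at P12. P12 libraries 1 to 3 were thus apart from all other libraries, and library 4 was at the P5 level. Flg2 reached at most 5 counts in any library, and no change could be read from it at this depth.

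Of the envelope precursors, Lor, Sprr1a and Sprr3 had the highest levels per length at P12. Lor (loricrin, the main protein of the mature epidermal envelope, chromosome 3, 92080271 to 92083142) had normalized counts of 90, 113, 134 and 82.6 at P5 and of 1669, 1311, 1102 and 103 at P12. P12 library 4 fell among the P5 libraries. Lor rose by 3.33 log2 units (SE 0.63, adjusted p = 0.00086), and by 3.70 without that library. Sprr3, a small proline-rich protein of oral and esophageal epithelium (92456502 to 92458720), had 45, 35.8, 59.3 and 42.3 at P5 and 728, 1082, 681 and 62.2 at P12. No overlap between the ages was seen, although 62.2 was close to the highest P5 value of 59.3. Its change was 3.82 log2 units (SE 0.67, adjusted p = 0.00051), and 4.19 without P12 library 4. Sprr1a, a small proline-rich protein that bridges other envelope proteins (92483952 to 92485895), had 50.1, 49.2, 39.5 and 33.9 at P5 and 560, 655, 512 and 42.2 at P12. Again only P12 library 4 overlapped with P5. The change of Sprr1a was 3.36 log2 units (SE 0.64, adjusted p = 0.00087), and 3.73 without it.

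The small proline-rich genes did not all move in the same way. Sprr1b, the close relative of Sprr1a, had read counts of 0, 0, 1 and 0 at P5 and of 157, 129, 102 and 8 at P12, and was too low at P5 and in P12 library 4 to pass the filter. Scaled for library size, its summed counts had a ratio of 289 (95% interval 51.6 to 11447, exact binomial, counting error only), which rests on 1 count in P5 library 4. The 11 Sprr2 genes together had 0, 0, 0 and 4 counts at P5 and 4, 3, 19 and 0 at P12, and 6 of them (Sprr2a2, Sprr2b, Sprr2e, Sprr2f, Sprr2i and Sprr2j-ps) had 0 in all libraries. No Sprr2 gene had more than 7 counts in a library. Sprr2a1 and Sprr2a2 share 96.3% and 96.5% of their 50-base words with other transcripts, so that reads from them could be lost or split in counting. Sprr4 went the other way, with 3, 4, 8 and 4 counts at P5 and 3, 0, 0 and 0 at P12. Without the filter it was called lower (log2 fold change -2.95, adjusted p = 0.026), the only member to be so, with 8 counts at most. Ivl, which encodes involucrin, had 3, 6, 5 and 7 counts at P5 and 13, 9, 10 and 4 at P12, and was not called without the filter (adjusted p = 0.68).

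The Lce genes encode small proteins rich in cysteine and glycine that are added late to the envelope. All 5 tested Lce3 genes rose (28.8% of all genes tested did), with log2 fold changes from 3.29 to 4.61. Each of the 5 had under 10 counts in a P5 library and needed P12 libraries to pass the filter. Nothing is therefore read from their shared direction. Lce3a (92925287 to 92926230) had normalized counts of 11.6, 11.2, 3.95 and 6.35 at P5 and of 233, 296, 196 and 12 at P12. Of all tested members it was the lowest in P12 library 4 relative to the others, at 4.99% of their mean, and its highest P5 value was 11.6 beside 12 in that library. Its change was 4.46 log2 units (SE 0.80, adjusted p = 0.00061), and 4.84 without P12 library 4. Lce3b (92932979 to 92934097) had 1.29, 8.94, 3.95 and 3.18 at P5 and 125, 172, 128 and 18.1 at P12. It did not overlap between the ages. Lce3b had a change of 4.61 log2 units (SE 0.71, adjusted p = 0.0002), which was 4.95 without P12 library 4 and 5.23 without P5 library 3.

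Lce3f (92992226 to 92993426) had normalized counts of 14.1, 20.1, 5.27 and 10.6 at P5 and of 135, 190, 157 and 17.1 at P12, where library 4 was among the P5 values. Its change was 3.29 log2 units (SE 0.63, adjusted p = 0.00099), and 3.64 without that library. Lce3e had 3.86, 8.94, 13.2 and 6.35 at P5 and 95.3, 107, 130 and 10 at P12. Lce3c had 1.29, 7.83, 2.64 and 12.7 at P5 and 88, 126, 107 and 8.03 at P12. For both, P12 library 4 overlapped with P5 and the other P12 libraries did not. Lce3e changed by 3.40 (SE 0.67, adjusted p = 0.0012) and Lce3c by 3.66 (SE 0.76, adjusted p = 0.0017) on the log2 scale. Without P12 library 4 these were 3.76 and 4.02, and without P5 library 5 that of Lce3c was 4.29. Lce3c, Lce3e and Lce3f share 35.7%, 43.7% and 48.0% of their 50-base words with other transcripts, so reads may have been split among them and their single values are uncertain. The sum over the 6 Lce3 genes was 25, 53, 22 and 37 counts at P5 and 955, 1082, 809 and 70 at P12. It does not depend on how reads were split within the family, but reads that match several genes could be missing from it. Lce3d, which is in the sum and was not tested, shares 49.3% of its 50-base words with other transcripts.

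Lce1 genes were at or near 0 at P5. Of the 14, none passed the filter. Summed, they had 3, 24, 4 and 9 counts at P5 and 808, 702, 719 and 51 at P12. P5 library 3 held the most of the P5 libraries, and P12 library 4 held 51 where the others held over 700. Lce1f had 0 counts in every P5 library and 72, 82, 73 and 1 at P12, which made it at least 13.3-fold higher against a floor of 3 counts in each P5 library. On the same floor Lce1g was at least 6.59-fold, Lce1j at least 3.91-fold and Lce1l at least 3.39-fold higher. In P12 library 4 these genes had 2, 0 and 3 counts, so the bounds, as that of Lce1f, rest on P12 libraries 1 to 3. For Lce1a1, with 3 counts over P5 and 90, 70, 101 and 1 at P12, the ratio of summed counts was 63.8 (95% interval 21.6 to 311). It was 77 for Lce1c (21.1 to 640), 59.5 for Lce1e (16.2 to 495), 36.5 for Lce3d (9.84 to 306) and 24.5 for Lce1k (6.51 to 206). Each of these intervals covers counting error only. The P5 counts of Lce1a1, Lce1c and Lce3d were all in P5 library 3 and those of Lce1k all in P5 library 1, so that without that library these genes were at 0 at P5 and had no ratio. Lce1m, which lies apart from the other Lce1 genes at 93017810 to 93019060, had 3 counts at most, and Lce6a had 6 at most.

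**Figure D2:**
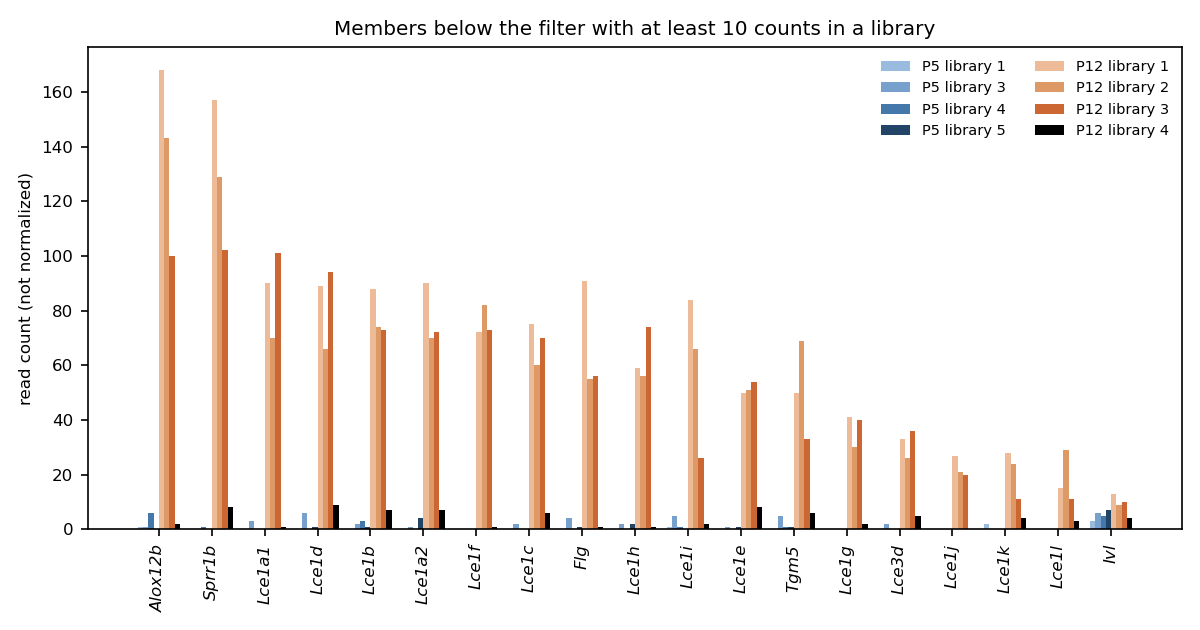
Read counts, not normalized, of the 19 members below the filter that had at least 10 counts in a library, with 8 bars for each gene in blue shades for P5, orange shades for P12 libraries 1 to 3 and black for P12 library 4. In 18 of the 19, each of P12 libraries 1 to 3 has 10 counts or more while no P5 library has more than 6 and P12 library 4 has 9 at most; Ivl is the exception.

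Transglutaminases join envelope proteins by cross-links between glutamine and lysine. Tgm1, the membrane-bound enzyme of keratinocytes (chromosome 14, 55700009 to 55713926), was the only tested member that was not called. It had normalized counts of 863, 788, 658 and 654 at P5 and of 736, 868, 710 and 370 at P12. P12 libraries 1 and 3 lay within the P5 range, library 2 just above it and library 4 below it. The change was -0.14 log2 units (SE 0.21, adjusted p = 0.59), and it was 0.06 (adjusted p = 0.68) without library 4. A miss of the threshold does not show that the ages were alike. Of its exonic bases, 5.8% overlap Gm49067 on the other strand.

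Tgm3, the transglutaminase that acts on loricrin and small proline-rich proteins (chromosome 2, 130012349 to 130050399), had 11.6, 31.3, 19.8 and 6.35 at P5 and 239, 233, 126 and 28.1 at P12. Only P12 library 4 overlapped with P5. Tgm3 rose by 3.19 log2 units (SE 0.63, adjusted p = 0.0012), and by 3.53 without that library. Tgm5 was not tested, with read counts of 0, 5, 1 and 1 at P5 and 50, 69, 33 and 6 at P12. Among the other transglutaminases, Tgm4 (log2 fold change 0.79) and Tgm2 (0.77) rose, and 1 of the 3 tested was not called.

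Plakins, which link desmosomes and keratin to the growing envelope, were already abundant at P5 and had the smallest fitted changes among the called members. Evpl (envoplakin, chromosome 11, 116220559 to 116238077) had 1063, 1145, 1190 and 1713 at P5 and 2103, 2340, 2062 and 2043 at P12. In contrast to the precursors, Evpl in P12 library 4 was level with the other P12 libraries, at 94.2% of their mean. It rose from 1278 ± 295 to 2137 ± 138 (SD, n = 4 each), a change of 0.74 log2 units (SE 0.13, adjusted p = 0.00052), and 0.76 without that library. Ppl (periplakin, chromosome 16, 5086291 to 5132421) had 1198, 1191, 1218 and 1399 at P5 and 1963, 2109, 1814 and 1027 at P12. P12 library 4 was below all P5 libraries. Its rise of 0.47 log2 units (SE 0.18) was called at an adjusted p of 0.043, and the call was lost when any 1 of the other 7 libraries was left out (adjusted p from 0.051 to 0.13). Without P12 library 4 it was 0.64 (adjusted p = 9.1e-06).

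Genes of the adhesion structures of the upper layers were higher at P12. Dsg1a and Dsg1b encode copies of desmoglein 1, a desmosomal cadherin. Dsg1a (chromosome 18, 20310811 to 20343350) had 729, 617, 646 and 875 at P5 and 2087, 2157, 1641 and 826 at P12, with library 4 within the P5 range. Dsg1b (chromosome 18, 20376729 to 20410196) had 312, 290, 336 and 331 at P5 and 1065, 1234, 999 and 793 at P12, with no overlap and with library 4 at 72.2% of the others. The change was 1.23 log2 units for Dsg1a (SE 0.25, adjusted p = 0.0014) and 1.69 for Dsg1b (SE 0.12, adjusted p = 6.0e-07), and 1.45 and 1.79 without P12 library 4. Reads may have been split between them, since they share 35.0% and 48.9% of their 50-base words with other transcripts. Cdsn, which encodes the corneodesmosome protein corneodesmosin (chromosome 17, 35552128 to 35557180), had 23.1, 26.8, 43.5 and 11.6 at P5 and 460, 489, 337 and 30.1 at P12. P12 library 4 lay among the P5 libraries. Cdsn had a change of 3.68 log2 units (SE 0.70, adjusted p = 0.00092), and of 4.05 without it.

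The 3 members with the highest level per length at P12, Dmkn, Calml3 and Krtdap, belong to the secreted and small cytosolic proteins of suprabasal keratinocytes. Dmkn (dermokine, chromosome 7, 30763756 to 30781063) had 432, 312, 332 and 513 at P5 and 5766, 6443, 5376 and 2772 at P12. It was far above P5 in every P12 library. Dmkn rose from 397 ± 93.4 to 5089 ± 1607 (SD, n = 4 each), a change of 3.68 log2 units (SE 0.26, adjusted p = 4.5e-07), and of 3.88 without P12 library 4. Calml3, a calmodulin-like protein of epithelia (chromosome 13, 3802896 to 3804316), had 104, 70.4, 71.2 and 58.2 at P5 and 2054, 2608, 2024 and 486 at P12. Its ages did not overlap either. The change of Calml3 was 4.57 log2 units (SE 0.47, adjusted p = 9.6e-06), and 4.88 without P12 library 4.

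Sbsn and Krtdap, which encode the secreted proteins suprabasin and keratinocyte differentiation-associated protein, are neighbours of Dmkn on chromosome 7. Sbsn (30751471 to 30756134) had 177, 164, 175 and 238 at P5 and 1047, 1112, 894 and 341 at P12, and Krtdap (30787896 to 30791097) had 34.7, 32.4, 30.3 and 29.6 at P5 and 589, 797, 617 and 76.3 at P12. Neither overlapped between the ages. The change was 2.17 log2 units for Sbsn (SE 0.31, adjusted p = 0.00012) and 4.03 for Krtdap (SE 0.60, adjusted p = 0.00016), and 2.42 and 4.39 without P12 library 4. In P12 library 4 the 3 neighbours stood at different levels, with Dmkn at 47.3%, Sbsn at 33.5% and Krtdap at 11.4% of the mean of the other P12 libraries. Of the exonic bases of Sbsn, 7.7% overlap Tmem147os. Cnfn (cornifelin, chromosome 7, 25367620 to 25369724) had 28.3, 20.1, 21.1 and 13.8 at P5 and 339, 350, 254 and 36.1 at P12. No overlap between the ages was seen, and the change was 3.57 log2 units (SE 0.60, adjusted p = 0.00037) and 3.93 without P12 library 4.

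The epidermal lipoxygenases Alox12b and Aloxe3 act in turn on the lipids that are attached to the envelope. Aloxe3 rose from a mean of 13.9 to 65.5 normalized counts, a change of 2.24 log2 units (SE 0.48, adjusted p = 0.002), and library 4 was at 16.1 beside a highest P5 value of 15.8. Without that library its change was 2.55. Alox12b was not tested, with read counts of 1, 1, 6 and 0 at P5 and 168, 143, 100 and 2 at P12. Grhl3, a grainyhead-like transcription factor of barrier formation (chromosome 4, 135541888 to 135573630), had normalized counts of 10.3, 16.8, 14.5 and 7.41 at P5 and of 99.7, 121, 74.1 and 7.03 at P12. P12 library 4 was below all P5 libraries. Its change was 2.63 log2 units (SE 0.65, adjusted p = 0.0048), and 3.0 without that library.

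**Figure D3:**
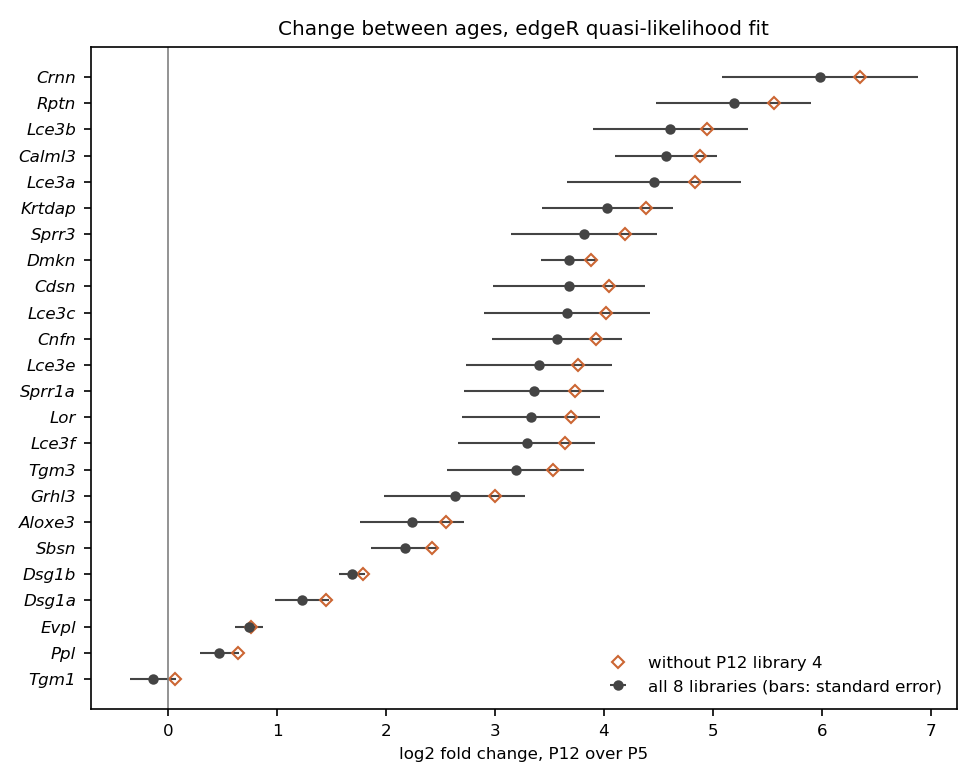
Log2 fold change of P12 over P5 for the 24 tested members, as points with bars of 1 standard error from all 8 libraries, and as open diamonds without P12 library 4. Crnn has the largest change at 5.98 and Tgm1 the smallest at -0.14, the only point below 0, and its diamond is at 0.06.

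The order of the members changed between the ages. Per kilobase of gene length, the highest mean levels at P5 were those of Tgm1 (234 normalized counts per kilobase), Evpl (200), Ppl (182) and Dmkn (181). At P12 they were those of Dmkn (2322), Calml3 (1262), Krtdap (765) and Lor (588), followed by Rptn (578), Sprr1a (549) and Sprr3 (522). Tgm1 had moved to rank 15 of the 24 at P12, at 212 per kilobase. The 3 members with the most reads held between 58.8% and 65% of all member counts at P5 and between 41.1% and 43.2% in P12 libraries 1 to 3. In P12 library 4 they held 61.7%, and they were Dmkn, Evpl and Ppl. Neighbours in this order, namely Tgm1, Evpl, Ppl and Dmkn at P5, and Lor, Rptn, Sprr1a and Sprr3 at P12, differed by less than the spread between libraries of the same age.

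Members differed widely in how much of the P12 level was present in P12 library 4. Its normalized count was the lowest of the 4 P12 libraries for 24 of the 24 tested members, as it was for 44.3% of all genes that were higher at P12. It was under 10% of the mean of P12 libraries 1 to 3 for 10 members (0.57% of all genes that were higher), under 25% for 17 (1.86%) and under 50% for 21 (5.64%). The summed level was at 7.94% for the precursors, 7.6% for the S100-fused proteins, 9.31% for the lipoxygenases and 40% for the transglutaminases. It was at 36.8% for the secreted and small cytosolic proteins, 47.3% for the corneodesmosome genes and 74.3% for the plakins. These sums follow the most abundant genes of each group. Cdsn was at 7.02% beside Dsg1a at 42.1% and Dsg1b at 72.2%, and Tgm3 at 14.1% beside Tgm1 at 48%. The secreted and small cytosolic proteins ranged from 11.4% (Krtdap) to 47.3% (Dmkn), and the plakins were at 52.4% (Ppl) and 94.2% (Evpl). Summed normalized counts of the precursors were 341 in this library beside 224 to 295 at P5, and those of the secreted and small cytosolic proteins were 3712 beside 599 to 853. Those of the plakins, 3070, lay within the P5 range of 2261 to 3112.

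Some keratin markers were as low in P12 library 4 as most members were, and others were less so. Both markers of non-keratinized oral mucosa rose, Krt13 by 4.18 and Krt4 by 3.42 on the log2 scale (4.57 and 3.80 without P12 library 4), and their summed level ranged from 428 to 801 at P5, from 8483 to 16295 in P12 libraries 1 to 3 and 786 in P12 library 4. Of the 6 markers of keratinized stratified epithelium 5 were tested and rose, Krt76 by 6.70, Krt16 by 6.25, Krt6a by 5.15, Krt10 by 4.62 and Krt1 by 3.08, and Krt2, a keratin of cornified skin, had 1 count at most. Their summed level ranged from 805 to 1251 at P5 and from 34678 to 47988 in P12 libraries 1 to 3, against 14399 in library 4. Within that list Krt1 was at 6.82% and Krt16 at 16.7% of the mean of the other P12 libraries, whereas Krt10, Krt6a and Krt76 were between 36.4% and 41.9%. Of the 3 basal keratins, Krt14 and Krt5 rose and Krt15 fell by 2.16 on the log2 scale, and all 3 were between 70% and 90.6% in library 4. Leukocyte and endothelial markers were between 92.2% and 96.6% there, with Cd207 at 0 in all P12 libraries, and mesenchymal markers between 67% and 91.9%. The part of oral epithelium in the members' values was not tested.

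**Figure D4:**
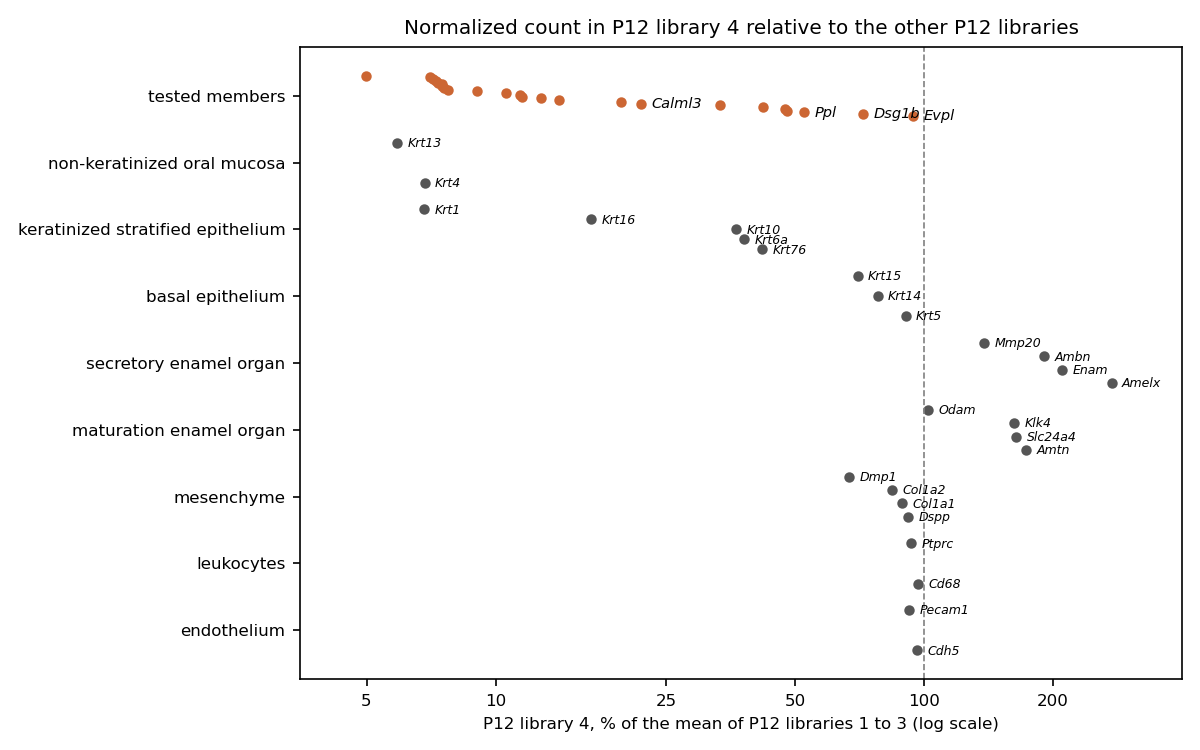
Normalized count in P12 library 4 as a percentage of the mean of P12 libraries 1 to 3, on a log axis, for the 24 tested members (orange) and for marker genes of 8 cell types (grey), with a dashed line at 100%. Of the members, 10 lie under 10% with Krt13, Krt4 and Krt1, Evpl lies at 94.2%, and the secretory and maturation genes lie at or above 100%.

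Genes of related pathways moved in both directions. Their shares stand beside the 28.8% higher, the 28.4% lower and the median of 0.01 of all genes tested. The filter is part of these shares and medians, as it is for the members. Of the largest rises named below, Cyp4f39, Abca12, Sult2b1, Klk14, Klk13, Hrnr, Kprp and Tchhl1 had under 10 counts in a P5 library. They needed P12 libraries to pass the filter, so nothing is read from their direction. Of 14 genes of barrier lipids 12 were tested, and 8 rose and 2 fell, with a median log2 fold change of 0.91. The largest rises were those of Cyp4f39, a fatty acid omega-hydroxylase (4.39, SE 0.37), Abca12, a lipid transporter of lamellar granules (3.75, 0.52), and Sult2b1, a cholesterol sulfotransferase (3.71, 0.38). Degs2, which acts in ceramide synthesis, fell by 1.69 on the log2 scale. Among the proteases and protease inhibitors of cornification 12 of 14 were tested, and 9 rose and 1 fell, with a median of 1.60. Klk14 (6.01, SE 0.95, and 6.69 without P5 library 3) and Klk13 (3.88, 0.63), kallikrein proteases, and Spink5 (4.68, 0.70), an inhibitor of kallikreins, rose the most. Cst6, the cysteine protease inhibitor cystatin M/E, fell from a mean of 6537 to 159 normalized counts (log2 fold change -5.37, SE 0.11).

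All 17 regulators of epidermal differentiation were tested, and 11 rose and 3 fell, with a median of 0.90. Ehf, an ETS factor of epithelia (3.31, SE 0.23), and the zinc finger genes Ovol2 (2.68, 0.27) and Ovol1 (2.46, 0.37) rose the most. Among those that fell were Maf (by 1.84) and Zfp750 (by 0.75), regulators of late keratinocyte differentiation. Trp63, the p63 gene of basal epithelium (-0.15, adjusted p = 0.51), and Klf4, a factor of barrier formation (-0.12, adjusted p = 0.29), were not called. Without P12 library 4, where Trp63 was at 178% of the other P12 libraries, Trp63 was called lower (-0.41, adjusted p = 0.00093). Of the 13 other genes of the epidermal differentiation complex 9 were tested, and 8 rose and 1 fell, with a median of 2.39. Hrnr rose the most (7.70, SE 1.08), followed by Kprp (5.47, 0.90) and Tchhl1 (3.84, 0.31), and without P5 library 3 Kprp was at 7.52. Tchh, the trichohyalin gene known from hair follicle and tongue, fell from a mean of 1775 to 571 normalized counts (log2 fold change -1.63). Without P12 library 4, 11 of the 13 barrier lipid genes then tested rose and 2 fell (Elovl4 and Pnpla1 were then called higher), as 10 and 2 of 13 proteases and inhibitors did (Klk8 was then called lower). Of the 17 regulators 11 rose and 4 fell, and of 11 other genes of the complex 10 rose and 1 fell. In P12 library 4, Hrnr was at 6.01% and Kprp at 10.5% of the mean of the other P12 libraries, while Tchhl1 was at 130% and Cst6 at 106%.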

How the data were processed

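RNA-seq was performed by the authors on enamel organs of mouse first molars at P5 and P12. The authors deposited whole-number read counts per gene, not normalized, beside each gene's name, position and length. The aligner, counting program and use of strand are not given in the sources used here. The submitters' processing notes name CASAVA and mm39, whereas the coordinates of all 58 members are those of GENCODE M21 for GRCm38, which are printed. Columns were matched to libraries by title.

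The ages were compared by the quasi-likelihood test of edgeR 4.0.16 (R 4.3.3) after filterByExpr and TMM scaling, with no covariate. P-values were adjusted by Benjamini-Hochberg over all 16440 genes kept by the filter, at a threshold of 0.05. All fold changes, standard errors and adjusted p-values come from this test unless another is named. Alternatives were DESeq2 1.42.0 (named in the study's methods), limma-voom (limma 3.58.1), other scaling, filters and threshold, each library left out, and the replicate number as a block. The edgeR fit was tested on simulated data.

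The members and lists were chosen with earlier results of these data known. Library values are given for tested members with a mean of at least 100 normalized counts at an age or over all libraries, and for a few tested members below it. From each pathway list, up to 3 called rises and 3 called falls of the largest size are named, apart from 2 genes that are not reported here. Trp63, Klf4 and the non-members of the chromosome 3 interval were named after their values were seen. A fold against 0 counts uses a floor of 3 counts in each P5 library. The share of 50-base words that a gene's transcripts have in common with other genes was computed on GENCODE M21. Pools of an age are separate pups by the methods, and no pair of libraries agreed within counting noise (chi-square divided by its degrees of freedom, 4.76 to 74.55). Depth was 16574548 to 22013456 counts, and intervals and floors cover counting error only.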

Additional observations from a re-analysis of the deposited data

Results flagged for a closer look

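Among 43 groups of 4 libraries with a mean of at least 10 normalized counts, 2 held a library far from the other 3 by Dixon's criterion. Chance flags about 1 in 20 groups (2.15 of 43). The groups are genes of the same libraries and are not independent, so the 2 flags are not read against that number. P12 library 4 was the lowest P12 library for 24 of the 24 tested members, and the criterion flagged it for Rptn alone. Rptn in P12 library 4 was at 241 normalized counts, against 3010 to 3259 in the other P12 libraries. Ppl in P5 library 5 was at 1399, against 1191 to 1218 in the other P5 libraries.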

How the results depend on the processing

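Over 17 alternatives, 374 of 397 fold changes of single tested members kept their direction and their side of the threshold, and 14 of the 24 genes did so throughout. The number of members higher at P12 was 23 of 24 tested, 41 of 48 with DESeq2, 41 of 52 with no filter on low counts, 14 of 24 with limma-voom and 14 of 15 with at least 10 counts required in every library. Of all genes with an adjusted p, 28.8%, 20.4%, 16.2%, 28.2% and 29.3% were higher in the same order. It ranged from 22 to 41 when 1 library was left out. Without any 1 P5 library it was 40 of 42 tested and without P12 library 4 it was 41 of 42, and without P12 library 1, 2 or 3 it was 22 of 24 tested. Of all genes then tested, 26% to 27%, 29.2% and 25.9% to 26.7% were higher in the same order. With 1 library left out, a gene needed counts in fewer libraries to pass the filter. The members added without a P5 library had at most 6 counts in any P5 library, so nothing is read from their direction. The number lower was 0, and 1 with DESeq2 and with no filter (Sprr4 in both). Tgm1 changed sign with scaling by total count (0.24) and without P12 library 4 (0.06), and was called in neither (-0.28 to 0.06 with 1 library left out). Scaling by total count moved the median of all genes from 0.01 to 0.38 and the calls over all genes from 4735 higher and 4676 lower to 8877 and 2330. The mean share of member counts was 5.41 times higher at P12, 4.14 times with normalized counts, and 4.83 to 6.5 times with 1 library left out.

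Samples of the same number at both ages did not deviate together (correlations of 0.043, -0.011 and -0.012), so that the numbers were not taken as pairs. With the replicate block over the 6 libraries with a number in common, 20 of 23 members tested were higher and 1 lower. Of all genes tested in that fit, 23.6% were higher. The member called lower was Tgm1 (-0.39, adjusted p = 0.042 with edgeR), and Grhl3 was not called (adjusted p = 0.051). The same 6 libraries without the block gave 21 higher of 23 tested, beside 24.9% of all genes tested.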
